A study of Mus musculus with 4 samples.

Results

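The regions described here are the islands of H3K9me3 with the most reads for their length in cultured CD8+ T cells of 2 genotypes. Trimethylated lysine 9 of histone H3 (H3K9me3) was measured by chromatin immunoprecipitation and sequencing (ChIP-seq) in wild-type (WT) and Suv39h1-KO (KO) mouse cells of the C57BL/6 background. Both cultures had been stimulated for 3 days with anti-CD3, anti-CD28 and IL-2, and both immunoprecipitations used the same batch of antibody. An island is a stretch of adjoining 500 bp windows that the peak caller joined and called enriched, and the deposited lists give the reads in each. An autosomal island was taken as dense when it held at least 50 reads per kb, which gave 1377 islands of 37777 in all. The members were thus chosen by the authors' own read counts, and their densities are given as a description. Of these, 569 came from the 12368 autosomal WT islands and 808 from the 25409 autosomal KO islands. Each genotype had 1 H3K9me3 library, so the values stand side by side without a test. The inputs were not analysed here, and the labels give neither how the deletion was made nor how many mice gave each culture. In a whole culture, the mark in more of the cells and more mark in each cell cannot be told apart.

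H3K9me3 is the defining mark of constitutive heterochromatin. SUV39H1 and its relative SUV39H2 place it on the satellite repeats around centromeres, while SETDB1 places it at retrotransposons and at clusters of KRAB zinc finger genes, to which it is brought by the KRAB zinc finger proteins themselves through TRIM28. In textbook accounts of the mouse, clustered gene families of recent origin, imprinted loci and remnants of satellite DNA within the assembled chromosomes carry it in many tissues. Where the reference holds 1 copy of a sequence that the genome holds many times, reads from all copies can gather on that copy with any antibody.

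The starts of 7 genes are shown, 4 that pair up as partial copies within a gene cluster and 3 at islands of high density. Sequences are from RefSeq (GRCm38.p6, the assembly that mm10 names) and cover the 250 bases before a gene's start, written 5′ to 3′ on the gene's strand. Capitals in the first 4 mark bases inside exact matches of at least 20 bases to the named partner, and capitals in the next 3 mark CG dinucleotides, the sites of DNA methylation. Chil3 (chr3:106167565-106167814, minus strand) and Chil4 (chr3:106219480-106219729, minus strand) lie under the longest dense island of either list, and 70 bases of each were shared with the other.
Chil3: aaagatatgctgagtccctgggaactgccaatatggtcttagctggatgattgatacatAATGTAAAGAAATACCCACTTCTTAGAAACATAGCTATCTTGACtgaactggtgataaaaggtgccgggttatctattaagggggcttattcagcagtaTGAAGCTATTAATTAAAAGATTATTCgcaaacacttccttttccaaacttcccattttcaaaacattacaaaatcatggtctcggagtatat
Chil4: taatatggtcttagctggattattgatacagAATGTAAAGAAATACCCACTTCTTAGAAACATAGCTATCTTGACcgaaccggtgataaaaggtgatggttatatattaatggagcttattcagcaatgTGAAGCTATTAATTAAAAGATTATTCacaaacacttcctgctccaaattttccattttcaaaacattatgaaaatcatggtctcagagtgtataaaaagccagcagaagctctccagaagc
Zfp982 (chr4:147492167-147492416, plus strand) and Zfp980 (chr4:145670447-145670696, plus strand) belong to the zinc finger cluster at the end of chromosome 4, and shared 172 and 182 bases. The Zfp982 start lay in a dense KO island of 66.1 reads per kb and in a WT island of 44.9, whereas the Zfp980 start lay in no island.
Zfp982: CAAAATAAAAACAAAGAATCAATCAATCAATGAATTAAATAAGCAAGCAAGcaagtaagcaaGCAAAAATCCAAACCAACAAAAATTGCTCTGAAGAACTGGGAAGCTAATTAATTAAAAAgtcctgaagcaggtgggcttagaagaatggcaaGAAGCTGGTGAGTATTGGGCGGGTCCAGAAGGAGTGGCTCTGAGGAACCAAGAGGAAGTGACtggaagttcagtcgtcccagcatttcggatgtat
Zfp980: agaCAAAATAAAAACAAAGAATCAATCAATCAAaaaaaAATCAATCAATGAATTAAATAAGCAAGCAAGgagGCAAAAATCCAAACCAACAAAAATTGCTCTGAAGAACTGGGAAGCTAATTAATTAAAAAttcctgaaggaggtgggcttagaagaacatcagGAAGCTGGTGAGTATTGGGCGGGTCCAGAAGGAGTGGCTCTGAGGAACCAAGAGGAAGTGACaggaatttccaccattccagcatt
Hjurp (chr1:88277580-88277829, minus strand) and Elobl (chr11:88966932-88967181, minus strand) lay under dense islands that no KO island overlapped, and 4931408C20Rik (chr1:26687461-26687710, minus strand) under an island dense in both lists. Of the 20-base words of the 4931408C20Rik promoter, 14.9% also occurred in that of Gm597 on the same chromosome.
Hjurp: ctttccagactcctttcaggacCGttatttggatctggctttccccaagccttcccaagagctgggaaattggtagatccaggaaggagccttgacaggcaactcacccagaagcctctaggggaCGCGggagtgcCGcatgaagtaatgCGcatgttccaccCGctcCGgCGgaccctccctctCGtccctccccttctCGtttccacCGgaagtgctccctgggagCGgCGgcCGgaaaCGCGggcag
Elobl: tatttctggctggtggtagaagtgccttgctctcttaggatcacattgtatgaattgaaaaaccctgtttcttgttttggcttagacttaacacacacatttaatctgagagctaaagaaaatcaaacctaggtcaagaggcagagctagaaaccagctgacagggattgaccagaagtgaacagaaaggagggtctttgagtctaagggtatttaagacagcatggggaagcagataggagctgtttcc
4931408C20Rik: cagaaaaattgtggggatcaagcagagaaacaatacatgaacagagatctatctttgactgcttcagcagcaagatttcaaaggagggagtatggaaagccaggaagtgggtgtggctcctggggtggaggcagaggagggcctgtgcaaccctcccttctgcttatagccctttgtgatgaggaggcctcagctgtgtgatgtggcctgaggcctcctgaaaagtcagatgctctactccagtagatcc
The Hjurp start held 16 CG dinucleotides and the other 2 none. Among 31396 autosomal promoters of 300 bases (250 before the start and 50 after), the median number was 7. In the 35 promoters overlapped by at least 1 base of a dense WT island and the 23 overlapped by a dense KO island the median was 2. It was also 2 in the 952 and 1182 promoters overlapped only by islands below the threshold.

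Near copies were more frequent among the promoters under dense islands. A promoter was counted as a near copy when at least 10% of its 20-base words occurred in the promoter of another gene, a limit chosen after the values were seen. This held for 7.95% of all autosomal promoters, and for 9.14% in WT and 10.7% in KO of those overlapped only by islands below the threshold. Among promoters overlapped by dense islands it held for 13 of 35 in WT (37.1%) and 11 of 23 in KO (47.8%). Of the 14 overlapped by dense islands of both lists it held for 9 (64.3%). Besides the pairs printed above, the near copies included 4931408C20Rik, Zfp985 with Zfp988, Zfp936 with Zfp977, the sperm motility kinase gene Smok2b with Smok3a on another chromosome, and the pheromone receptor gene Vmn2r129 with Vmn2r89. Genes without a common symbol stem were counted as well, such as Gm46840 with Igfbp7 (20.3%) and Gm39308 with Gtdc1 (28.1%). The shares are therefore not shares of copied genes, and what kind of sequence was shared was not tested. No promoter overlapped by a dense island shared 50% or more of its words, against 3.59% of all promoters.

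Density and length were tied by the way islands were called. The lowest density accepted by the caller was 130 reads per kb in WT and 112 in KO at a length of 0.5 kb. At 2 kb it was 61 and 54.5, at 4 kb 46.8 and 39.8, and at 8 kb 36.4 and 31.1. All 41 WT and 167 KO islands shorter than 3 kb were therefore dense by construction. Of the islands of 3 to 6 kb, 355 of 865 (41.0%) were dense in WT and 531 of 3548 (15.0%) in KO, whereas of those of 6 to 12 kb it was 112 (1.55%) and 73 (0.475%). Among the longest islands, of 12 kb or more, 61 (1.44%) were dense in WT and 37 (0.584%) in KO. The members thus range from the shortest islands, which the caller's own limit makes dense, to longer ones that stand above most of their length class. The change between them is gradual. At 4.5 kb, 86 of 174 WT islands and 47 of 645 KO islands were dense, where the lowest densities were 42.2 and 36.9.

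**Figure D1:**
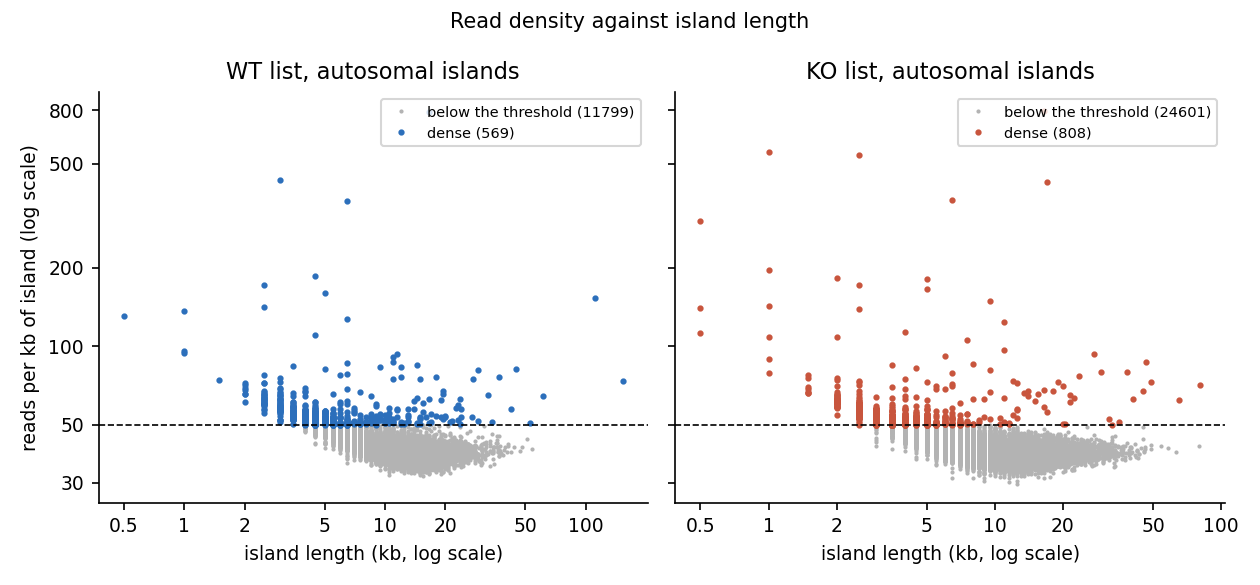
Reads per kb against length for every autosomal island of the WT list (left) and the KO list (right), both axes logarithmic, with dense islands in colour, the others in grey and the threshold of 50 reads per kb dashed. The lower edge of the cloud falls with length, so that all 41 WT and 167 KO islands under 3 kb lie above the threshold.

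Most dense islands lay little above the threshold. The quartiles of density were 51.2, 53.6 and 57.7 reads per kb in WT and 51.1, 53.0 and 56.7 in KO, and 80.7% and 84.3% of members had under 60. Only 12 WT and 21 KO islands reached 100. The 3 WT members nearest to the threshold held 225 reads over 4.5 kb each, or 50 per kb, while the 3 WT islands just under it had 49.9, 49.9 and 49.8. In KO the nearest had 50 above and 49.9, 49.9 and 49.8 below. The exact Poisson interval of such an island, 43.7 to 57.0 for 225 reads over 4.5 kb, spans the threshold widely.

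A larger part of the WT list was dense. The share was 4.60% (95% exact binomial interval 4.24 to 4.98) of WT islands and 3.18% (2.97 to 3.40) of KO islands. Dense islands held 254835 reads in WT, 4.59% of the reads in autosomal islands, and 245786 in KO, 2.46%. They covered 3957.5 kb in WT and 3825.5 kb in KO, so that both lists had about the same dense length although the KO list had more dense islands. The median length was 4.5 kb in WT and 3.5 kb in KO, against 10.5 and 9.0 kb for islands below the threshold. Members of 6 kb or more numbered 173 in WT and 110 in KO, and carried 64.8% and 47.0% of the reads of all members. Which list had more members depended on short islands, since 261 WT and 169 KO members remained with a minimum length of 5 kb. All intervals given here cover counting error alone, and reads that are copies of 1 fragment would make them too narrow.

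Dense islands of both lists met at few places. Of the WT members, 314 of 569 (55.2%, 51.0 to 59.3) were overlapped by any KO island, against 48.0% of all autosomal WT islands. Of the KO members, 315 of 808 (39.0%, 35.6 to 42.4) were overlapped by a WT island, against 24.9% of all. With a minimum length of 5 kb the order turned, at 64.0% of WT and 70.4% of KO members. A dense island of the other list was met by 108 WT members (19%) and 113 KO members (14.0%), where it was 2.50% of all WT islands and 1.29% of all KO islands. Counted as places, 1264 had a dense island, of which 108 were dense in both lists, 461 for WT alone and 695 for KO alone. Many places counted for 1 list alone had an island in the other list that missed the threshold, with 206 such cases among WT members and 202 among KO members. These partners had a median of 43.2 reads per kb in KO (35.3 to 49.8) and 41.9 in WT (33.6 to 49.9). That left 255 WT members (44.8%) and 493 KO members (61.0%) with no island of the other list over them. Their nearest island in the other list lay at a median distance of 63.5 kb for WT members and 45.5 kb for KO members, and within 10 kb for 42 and 88.

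Long dense islands were shared far more often than short ones. In WT, the share overlapped by any KO island was 43.9% under 3 kb, 44.5% at 3 to 6 kb, 74.1% at 6 to 12 kb and 90.2% at 12 kb or more (55 of 61). In KO it was 31.7%, 33.1%, 71.2% and 91.9% (34 of 37) in the same classes. Among islands below the threshold the share moved less with length. It was 39.2%, 43.4% and 56.0% in the 3 WT classes that held any, and 21.9%, 21.6% and 32.3% in KO. Over all islands of 6 kb or more the intervals lay apart in both lists. In WT 138 of 173 dense islands (79.8%, 73.0 to 85.5) were overlapped, against 48.0% below the threshold, and in KO 86 of 110 (78.2%, 69.3 to 85.5) against 24.7%. Longer islands are also easier to hit by any other island, which comparing within length classes takes into account only in part.

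**Figure D2:**
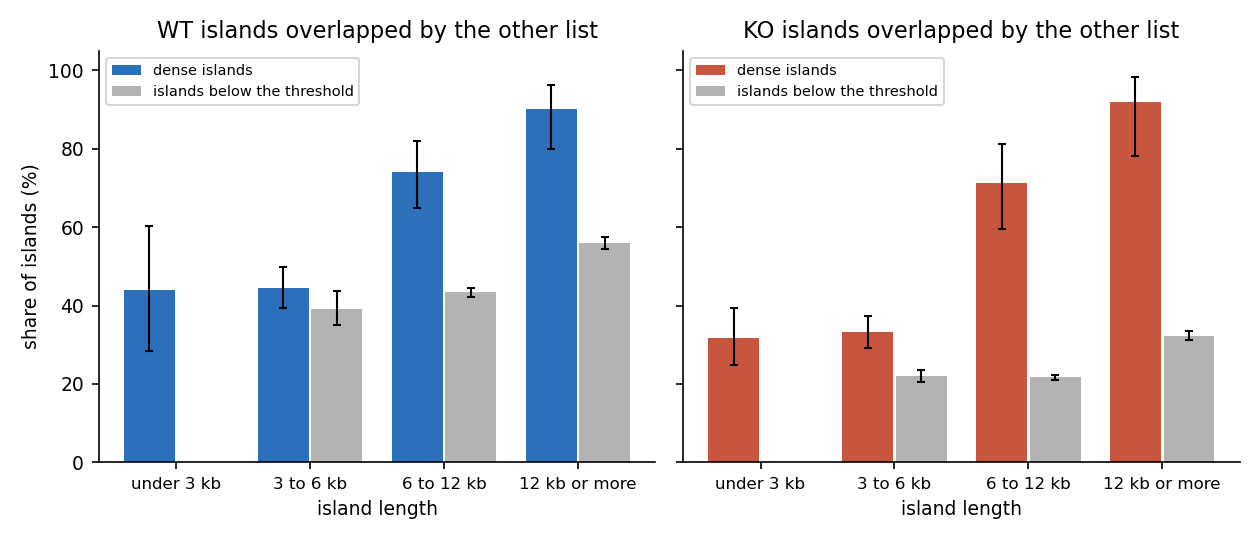
Share of islands overlapped by at least 1 bp of an island of the other list, by length class, for WT islands (left) and KO islands (right); bars in colour are dense islands, grey bars islands below the threshold, and error bars exact 95% binomial intervals. No island under 3 kb lay below the threshold, and from 6 kb on the dense bars stand at 71.2% to 91.9% against 21.6% to 56.0% for the grey ones.

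Of the 8 densest places shared by both lists, 6 had identical bounds and nearly the same number of reads in the 2 libraries. The highest density in both lists was over Sfi1, whose product binds centrins at the spindle pole, at chr11:3184001-3200500. This 16.5 kb island held 12980 reads in WT and 13171 in KO, or 787 reads per kb (95% exact Poisson interval 773 to 800.3) and 798 (785 to 812). The KO interval overlaps the WT interval, and the bounds of the island were identical. A second shared island, at chr2:98662001-98668500, lay more than 1 Mb from the nearest protein-coding gene, Lrrc4c, and held 2340 reads in WT and 2363 in KO (360 and 364 per kb). At the first assembled bases of chromosome 9, chr9:3000001-3002500 held 428 and 430 reads (171 and 172 per kb). Near Sfi1, chr11:3100001-3105000 held 797 and 829 reads (159 and 166 per kb) and chr11:3172001-3173000 held 136 and 143. An island over 4931408C20Rik and the long non-coding RNA gene Gm31136, chr1:26686001-26688500, held 352 and 346 (141 and 138 per kb). In each of these 6 the intervals of the 2 genotypes overlapped.

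In the remaining 2 of the 8 the read counts were also close, but the bounds differed and the intervals of density lay apart. Near Ly6c2, a gene of the Ly6 surface protein family 20.7 kb away, chr15:75084501-75087500 held 1296 reads in WT and chr15:75085001-75087500 held 1347 in KO. These were 432 reads per kb (409 to 456) and 539 (510 to 568), with the KO island shorter by 1 window. At chr14:19413001-19419500 the WT island held 824 reads, or 127 per kb (118 to 136), and the KO island, which began 3 windows later, held 902, or 180 (169 to 193). In both, the genotype with the shorter island had the higher density. What the input held at these 8 places was not tested.

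Islands called at nearly the same place allowed densities to be set side by side, though mostly over stretches with different bounds. Density depends on where the bounds lie, and the Poisson intervals do not cover that. A pair was a WT and a KO island that each covered at least 50% of the other, which held for 3216 pairs. Counts were not scaled to library depth, which is not known here, and the median ratio of KO to WT reads per kb over all pairs was 1.001. Over the 98 pairs dense in both lists it was 1.01, with quartiles of 0.938 and 1.07, and 25 of them (25.5%) had identical bounds, against 2.05% of all pairs. The Poisson intervals lay apart in 16 of the 98, of which 13 were higher in KO, where they lay apart in 4.57% of all pairs. Pairs dense in WT alone had a median ratio of 0.851 (117 pairs) and pairs dense in KO alone 1.14 (58 pairs), directions that the threshold itself fixes. A ratio beyond 1.5-fold either way occurred in 1 pair, 0.0311% of all. That pair, chr7:31230501-31237000 in WT, had 59.8 reads per kb in WT and 37.2 in a longer KO island of 12.5 kb. It touched no annotated gene.

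**Figure D3:**
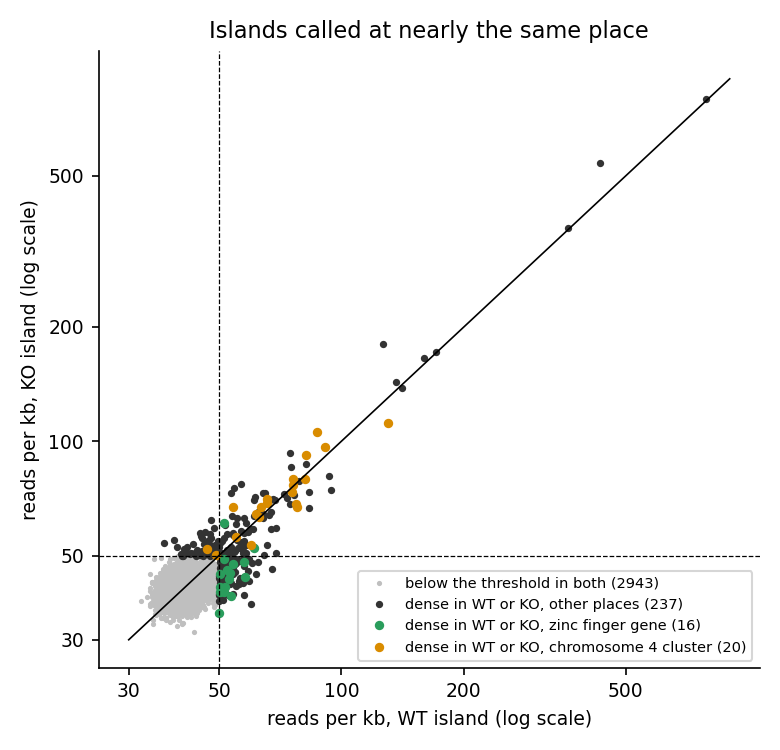
Reads per kb of the KO island against the WT island for the 3216 pairs of islands called at nearly the same place, both axes logarithmic, with the line of equal density and the thresholds of 50 dashed. Green marks the 16 pairs over zinc finger genes outside the chromosome 4 cluster that are dense in at least 1 list, of which 15 lie below the line and 14 are dense in WT alone, a place that the threshold fixes; the other 25 such pairs are among the grey points, and pairs of the cluster (orange) lie on both sides of the line.

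Long dense islands touched genes more often than other islands did. A protein-coding gene was touched by 235 of the 569 WT members (41.3%) and 258 of the 808 KO members (31.9%), against 36.5% of all autosomal WT islands and 29.7% of all KO islands. At 6 kb or more the shares were 48.6% and 48.2%, against 36.5% and 29.7% of islands below the threshold. In the other direction, 247 of 20558 autosomal protein-coding genes (1.20%) had a dense WT island and 234 (1.14%) a dense KO island. Both applied to 57 genes, which leaves 190 that were dense for WT alone and 177 for KO alone. Members with no annotated gene were 45.7% in WT and 58.0% in KO, near the shares below the threshold (50.4% and 58.7%). At 6 kb or more they were fewer, 29.5% and 38.2% against 50% and 58.4%.

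Families of neighbouring genes took part of this excess. A tandem family was counted where at least 3 genes with the same symbol stem lay within 500 kb. Dense islands touched such a gene in 60 cases in WT (10.5%) and 51 in KO (6.31%), against 5.14% and 3.99% of all islands of those lists. At 6 kb or more the shares were 23.1% and 20% for dense islands and 4.95% and 4.03% below the threshold, whereas under 6 kb they were 5.05% and 4.15% against 3.33% and 3.15%. Of 3417 tandem protein-coding genes, 73 had a dense island in WT and 42 in KO. Without the zinc finger genes these numbers were 41 and 24 of 3198, or 1.28% and 0.75%, close to the shares of all genes in WT and below them in KO.

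Of the 24 gene lists, that of zinc finger genes held the most genes under dense islands. The list was made by symbol (Zfp, Zscan, Zkscan, Zik and Zbtb followed by a number) and so holds KRAB and other zinc finger genes, many of which encode DNA-binding repressors. Of its 417 autosomal genes, 36 (8.63%) had a dense island in WT and 19 (4.56%) in KO, 14 of them in both. Seen from the islands, 41 WT members (7.21%) and 28 KO members (3.47%) touched a zinc finger gene, against 0.962% and 0.421% of all islands. At 12 kb or more it was 23 of 61 WT members (37.7%) and 9 of 37 KO members (24.3%), against 1.37% and 0.474% of all islands of that length. By place, 9 of the 10 genes on chromosome 4 were dense in both lists and Zfp984 in KO alone (51 reads per kb, with no WT island). Of the 31 on other autosomes, 5 were dense in both lists, 22 in WT alone and 4 in KO alone.

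Outside chromosome 4, most paired zinc finger islands had more reads per kb in WT than in KO. Zfp930 had a WT island of 22.5 kb with 1305 reads and a KO island of 20.5 kb with 898 (chr8:69213001-69235500 in WT), or 58.0 reads per kb (54.9 to 61.2) and 43.8 (41.0 to 46.8). Zfp810 had 53.6 (49.7 to 57.7) in WT and 39.2 (36.7 to 41.8) in KO. Zfp110, under 34 kb of WT island and 17 kb of KO island, had 51.4 (49.0 to 53.8) and 40.2 (37.2 to 43.3). In these 3 the intervals do not overlap. Zfp68 had 53.3 and 44.9, Zfp951 50 and 35.3, Zfp958 53.1 and 43.3, and Zfp160 57.7 and 48.1. Zfp445, whose product keeps methylation at imprinted control regions, had 51.6 and 41.4. The other direction was seen as well. Zfp936 had 51.5 (48.5 to 54.6) in WT and 61.1 (57.8 to 64.5) in KO over the same 21.5 kb, chr7:43160001-43181500. A neighbouring pair in the same gene had 51.3 and 49.0. The highest island over Zfp180 had 59.4 in WT and 63 in KO, and that over Zfp81 51.4 and 62.8. The values for Zfp180 and Zfp81 take the highest island of each list and do not come from a pair. Dense islands covered much less of both genes in KO than in WT, so these values do not compare the same stretch. Dense in KO alone were islands over Zfp867 (54.3), Zfp946 (51), Zfp663 (50.7) and Zfp40 (50.1), and Zfp663 had no WT island.

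Over the 16 such pairs dense in at least 1 list, the WT island was denser in 15 and the median ratio of KO to WT was 0.829. Since 14 of the 16 owe their place to WT alone, that count partly follows from the threshold. The 25 zinc finger pairs below the threshold in both lists were also picked by it, though with the same limit for WT and KO. There the WT island was denser in 21, with a median ratio of 0.911. Islands of 1 library per genotype are not replicates. Over all 41 pairs 36 were denser in WT (median ratio 0.886), with the intervals apart in 11 of those and in 1 of the 5 denser in KO. The 3161 pairs that touch no zinc finger gene had a median ratio of 1.003, and the 93 over olfactory receptor genes 1.01.

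The largest gathering of members was the zinc finger cluster near the end of chromosome 4. In the window from 145.4 to 147.9 Mb, 21 of 27 WT islands (77.8%) and 25 of 29 KO islands (86.2%) were dense. They and their neighbours covered 340.5 kb with 21691 reads in WT and 342.5 kb with 23157 reads in KO, at a median of 63.4 and 67.2 reads per kb. The window holds 16 zinc finger genes of the list, of which 9 had a dense island in WT and 10 in KO. This locus is described in the mouse as a young, repeated cluster of KRAB zinc finger genes, several of them active in embryonic stem cells. Vomeronasal receptor pseudogenes (Vmn2r-ps16, Vmn2r-ps18 and Vmn2r-ps20) lay under the same islands.

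Within the cluster the 2 libraries gave many islands at nearly the same bounds. An 11 kb island reaching Zfp981, chr4:146492001-146503000, held 1001 reads in WT and 1065 in KO, or 91.0 reads per kb (85.4 to 96.8) and 96.8 (91.1 to 103). The next, over Zfp981 and Zfp993 at chr4:146512001-146541000, had 81.3 and 79.6. The longest, over Zfp982 and Gm13141, was 37 kb long in WT and 38.5 kb long in KO, with 76.1 (73.3 to 78.9) and 79.5 (76.7 to 82.3). None of these 3 pairs differed beyond counting error. At Zfp992 the values were 82.0 and 92.0, at Zfp979 65.7 and 70.4, and at the start of Zfp985 54.9 and 55.9. A second island of Zfp985, chr4:147569501-147587500, had 54.0 (50.7 to 57.5) in WT and 67.3 (63.5 to 71.2) in KO. The island shared by Zfp978 and Zfp988 had 86.9 (81.5 to 92.6) over 11 kb in WT and 106 (98.5 to 113) over 7.5 kb in KO. These last 2 were the pairs of the cluster whose intervals lay apart, and both were higher in KO. In the second, the bounds differed, and the WT island reached into a further KO island, chr4:147342501-147351000, with 52.1. Of all 20 pairs in the window, 14 were denser in KO, 7 had identical bounds and the median ratio was 1.03.

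**Figure D4:**
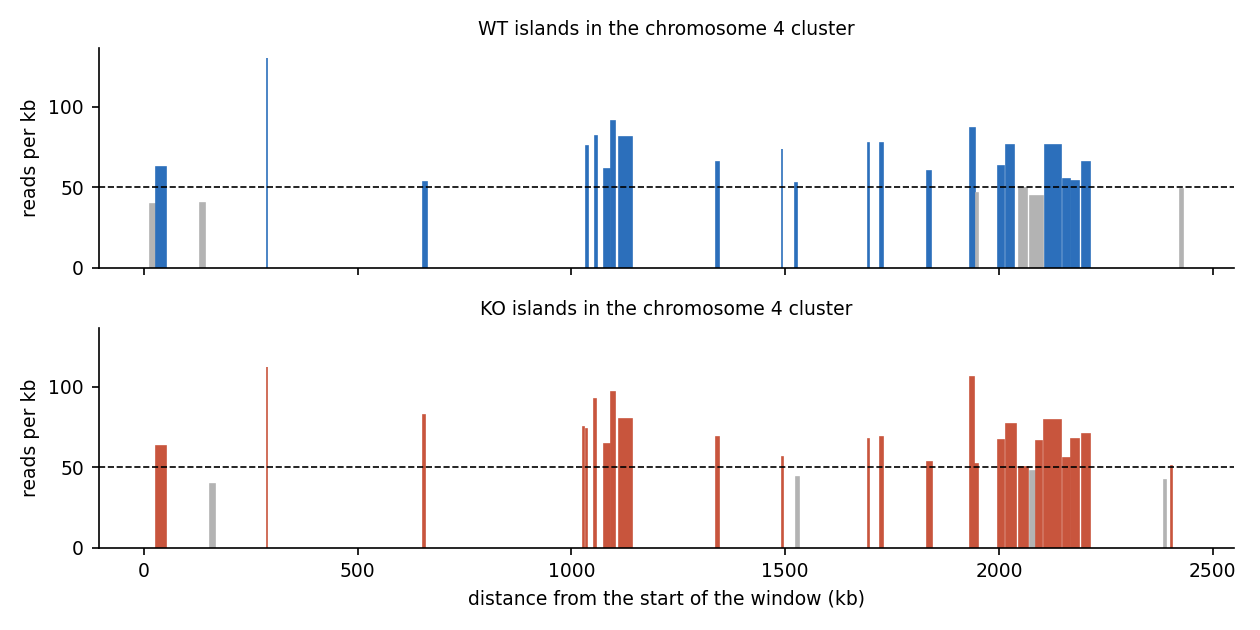
Islands of the WT list (upper) and the KO list (lower) across the zinc finger cluster of chromosome 4, drawn at their distance in kb from the start of the window and at their length (outlined so that the shortest can be seen), with height giving reads per kb; grey bars are below the threshold of 50 (dashed). The same blocks appear in both lists, and 21 of 27 WT and 25 of 29 KO islands reach the threshold.

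A second large gathering lay on chromosome 3 over the chitinase-like genes. Chia1 encodes a chitinase of the stomach and lung, and Chil3 and Chil4 encode secreted lectins of activated macrophages and epithelia. All 3 were under dense islands in both lists, and the other 4 genes of the list under none. The WT island of 153 kb over them had 73.5 reads per kb (72.2 to 74.9). In KO the same stretch was broken into several islands, with 61.6 reads per kb at Chia1, 67.4 at Chil3 and 71 (69.2 to 72.9) at Chil4. The gathering ran on to chr3:106937000, with 9 dense islands in each list that covered 235.5 kb in WT and 185.5 kb in KO.

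Further long members were found at the same places in both lists. On chromosome 16 the WT island was 45 kb and the KO island 46.5 kb long (chr16:3238501-3285000 in KO). They lay 307 kb from the nearest protein-coding gene and had 81.8 (79.2 to 84.5) and 87.3 (84.6 to 90.0) reads per kb. On chromosome 13, near the prolactin-family gene Prl2c2, the islands were 61.5 and 49 kb long with 64.1 (62.2 to 66.2) and 73.1 (70.7 to 75.5). Smok2a and Smok2b, sperm motility kinase genes, lay under the same 27.5 kb in both lists (chr17:13211501-13239000), with 74.8 (71.6 to 78.1) and 93.3 (89.7 to 97.0). Mup5, of the major urinary proteins that carry pheromones, had 57.7 over 42.5 kb in WT and 62.8 over 41 kb in KO. Ugt3a1, a UDP-glycosyltransferase gene, had 62.7 and 65.5, and Vmn2r129 64.2 and 62.9. KO was the higher by more than counting error in the islands of chromosomes 16 and 13, at Smok2 and, by little, at Mup5. The intervals overlapped for Ugt3a1 and Vmn2r129. On chromosomes 16 and 13 and at Mup5 the island lengths differed between the lists, which the intervals leave out. The longest KO member after that on chromosome 3, chr4:121995001-122060000 over the pseudogene Gm12892, had 62.0 over 65 kb. A WT island with 54.6 covered 20% of it.

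Members gathered into groups at other places too. With gaps of up to 250 kb between neighbours, the 1377 members formed 976 groups, of which 762 were 1 island alone and 30 held at least 4. Those 30 held 209 members. A group on chromosome 14 over Gm7247 (chr14:51367501-51521000) had 6 dense WT and 7 dense KO islands, and a group at the first bases of chromosome 4 (chr4:3050001-3255500) had 5 of each. A pair of groups had dense islands in WT alone, and both lay over zinc finger genes. They were chr10:82049001-82382500, over Zfp873 and Zfp938, and chr13:67035501-67321000, over Zfp712, Zfp458 and Zfp595, with 4 WT islands each. All 5 of these genes had a KO island below the threshold.

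Dense islands were frequent at the centromere ends of some assembled chromosomes. Mouse chromosomes have their centromeres at 1 end, and the reference sequence starts at 3 Mb, after a gap that stands for the satellite repeats. In the first 0.5 Mb after that gap, 17 of 34 WT islands (50%, 32.4 to 67.6) and 16 of 44 KO islands (36.4%, 22.4 to 52.2) were dense, on 7 chromosomes in each list. Of these, 5 in each list lay on chromosome 4, and 4 in WT and 3 in KO on chromosome 11. The intervals take such neighbours as independent. In the first 1 Mb, 19 of 89 WT islands (21.3%) and 22 of 134 KO islands (16.4%) were dense. In the first 5 Mb it was 31 of 473 (6.55%, 4.50 to 9.17) and 39 of 858 (4.55%, 3.25 to 6.16), with intervals that reach close to or across the shares over the autosomes. The Sfi1 islands and those at the starts of chromosomes 4, 9 and 16 belong to these. Satellite content was not computed, and its part in these values was not tested.

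Some of the densest islands were listed for 1 genotype alone. In WT, Elobl, an elongin B-like gene, lay under a 4.5 kb island with 837 reads, or 186 per kb (174 to 199). The 111 kb island at chr1:88208501-88319500 had 152 reads per kb (150.2 to 155). It held the whole of Ugt1a1 and the 3′ part of the other Ugt1a genes, a family of enzymes that conjugate bilirubin and drugs. The island also held Mroh2a, part of the cold receptor gene Trpm8, and Hjurp, the chaperone of the centromeric histone CENP-A. It alone accounts for 9 of the 11 genes of the UDP-glucuronosyltransferase list with a dense WT island. Gm7827 had 110.4 (101 to 121) over 4.5 kb, and an island 35.8 kb from Hsf2 had 84.6 over 14.5 kb. No KO island overlapped any of these 4. Of the 173 WT members of 6 kb or more, 35 had no KO island over them, and of those of 12 kb or more, 6.

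In KO, the densest island without a WT island was a 1 kb stretch in Aida, an inhibitor of axin-linked signalling, with 552 reads (507 to 600.03 per kb). Next came chr17:39832001-39849000, with 7260 reads over 17 kb, or 427 per kb (417 to 437). RefSeq places a pseudogene of 18S ribosomal RNA, Rn18s-rs5, and the non-coding gene AY036118 there. Others were chr2:3050001-3051000 with 195 reads (169 to 224 per kb) and chr3:5859001-5861000 with 182.5 per kb (164 to 202), neither over a gene. Tmem267 had a 9.5 kb KO island with 1415 reads, or 149 per kb (141 to 157). A second island in that gene, chr13:119596501-119603000, was dense in both lists with 510 and 512 reads. In Fbxw4, an F-box gene, a single 0.5 kb KO window held 151 reads, or 302 per kb (256 to 354), at the end of a 9.5 kb WT island with 52.2 per kb. Of the 110 KO members of 6 kb or more, 24 had no WT island over them, and of those of 12 kb or more, 3. Besides the ribosomal pseudogene, these were a 35.5 kb island in the actin-binding protein gene Palld with 51.1 and a 33 kb island near Cyp3a41a with 50.03. No such place was read as free of the mark in the other library, since a stretch below the caller's limit is not listed.

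Most other gene families lay under few dense islands. Olfactory receptor genes, the largest family of the mouse, had islands of any density in 229 of 1103 cases in WT and 400 in KO, but dense ones in 3 and 3. Over all 20558 protein-coding genes, 2706 and 2681 had an island of any density, and 247 and 234 a dense one. The highest among olfactory receptor genes was 50.9 reads per kb, at Olfr1312 in KO. Vomeronasal receptors had 4 and 3 of 349, and cytochrome P450 genes 2 and 3 of 98. Cyp20a1, an orphan P450, had 67.5 (59.7 to 76.1) over 4 kb in WT and 46.0 (41.4 to 50.9) over 8 kb in KO. Cyp7b1, an oxysterol hydroxylase gene, had 57.3 in KO alone, and Cyp2c38 and Cyp2c39 shared a KO island of 55.3. Of 57 clustered protocadherin genes, which encode neuronal adhesion proteins, 12 had a dense WT island, but Pcdha1 to Pcdha12 overlap one another and shared the same 4 kb island of 51.3. Pcdhb18 had 53.8 in KO. Serpin, defensin, keratin, histone, MHC, Skint, T cell receptor segment, and sulfotransferase and carboxylesterase genes had none in either list. These lists held 11 to 148 genes each, where 1.20% and 1.14% of all genes had a dense island, so a single such list is too short to be told from all genes.

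Of 48 imprinted genes 3 had a dense island in WT and 0 in KO, counts too small to set against the 1.20% and 1.14% of all genes. Kcnq1 and the non-coding RNA that starts within it, Kcnq1ot1, which silences its neighbours on the paternal chromosome, lay under a WT island of 52.5 kb with 50.8 reads per kb (48.9 to 52.7). The KO island there was 45 kb long with 49.1 (47.0 to 51.2), so that the gene crossed the threshold by less than counting error. Airn, the non-coding RNA that silences Igf2r, had 60.8 over 6 kb in WT, and the KO island over it had 41.7. Of 31 germline genes, Sycp1, of the meiotic synaptonemal complex, had 50.7 in WT and 51.7 in KO at different places. Of the 40 genes listed as multicopy or collapsed in the reference, Sfi1, Hjurp and Sirpb1b (51.8 in KO) were under dense islands.

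Genes of the T cell lists had no dense island, but with 1.20% and 1.14% of all genes under one, lists of this size would hold few or none. The 20 T cell identity genes had no island of any density in either list. Nor had the 74 histone and 35 MHC genes, so this cannot serve as a check of the labelled cell type. Of 36 genes of stem-like, memory and effector T cells, 9 in WT and 3 in KO had an island, none of them dense. Over all 20558 protein-coding genes, 2706 in WT and 2681 in KO had an island of any density. Of 21 genes of the H3K9 methylation machinery 4 had an island in each list, again none dense, and of 18 housekeeping genes none had one. Outside these lists, and chosen after their values were seen, Themis and Rasgrp1, both of T cell receptor signalling, had dense islands of 50.3 in KO and 53.6 in WT. The killer lectin-like receptor gene Klrb1c, which encodes NK1.1 of natural killer cells, had 63.4 reads per kb over 3.5 kb in KO and lay in a WT island of 49.3.

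**Figure D5:**
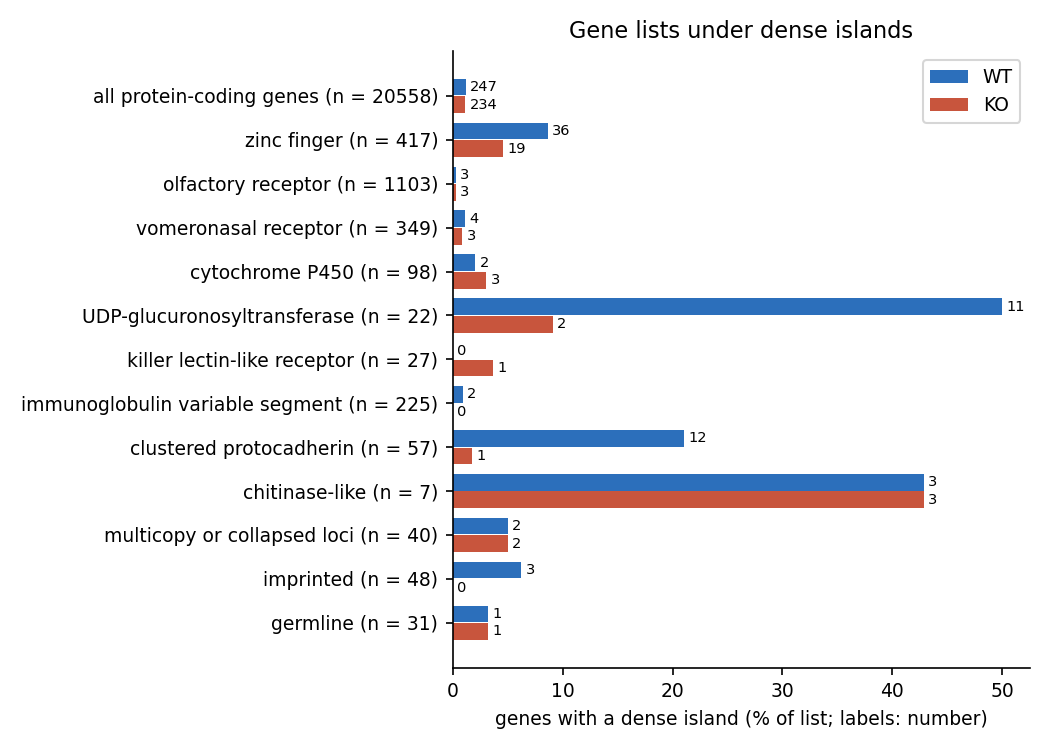
Share of each gene list (horizontal axis, % of autosomal members) with a dense island in WT (blue) or KO (red), for the lists with at least 1 such gene and for all protein-coding genes; labels give the number of genes. Zinc finger genes reach 8.63% in WT and 4.56% in KO against 1.20% and 1.14% of all genes, and 9 of the 11 UDP-glucuronosyltransferase genes and all 12 protocadherins in WT share 1 island each.

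A few microRNA genes lay under dense islands. Of 1005 hairpins in the RefSeq table, 1 lay under a dense WT island and 2 under a dense KO island. Mir15b and Mir16-2 are neighbours inside Smc4, a condensin gene, and lay under a 3.5 kb KO island with 53.7 reads per kb, chr3:69008001-69011500, where the WT list had none. Mir5103 lay under a WT island of 60.9, chr1:34429001-34433500, where the KO list had none. Their mature sequences are given with the seed, bases 2 to 8, in capitals.
mmu-miR-15b-5p: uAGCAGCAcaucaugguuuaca
mmu-miR-16-5p: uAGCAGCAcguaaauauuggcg
mmu-miR-5103: uCAUCCGGgauccccugagg
The first and second share their seed and belong to the family known for restraining the cell cycle, and the third has another seed.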

How the data were processed

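Each H3K9me3 library was used through its 1 deposited list of islands. Per the submitters' processing notes, Bowtie2, SICER 1.1 and the mm10 build were used. What settings and read filters the caller ran with, how deep the libraries are and whether the input was used is not given in the sources used here, and the lists have no header. The whole-number count in the deposited lists was read as the authors' reads per island, unscaled to depth or input, and was divided by island length (start counted from 0, last base included) without further scaling. Island totals were 5546970 reads in WT and 9994598 in KO over 19 autosomes. The members and gene lists were chosen with earlier results of these data known.

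Genes came from RefSeq (GRCm38.p6), with 402 genes off the chromosomes left out, and 228 of 233 listed symbols matched. Gene bodies without flanks were used, and exons and repeats were not used here. Intervals are exact at 95%, binomial for shares and Poisson for reads. Islands were named by a rule: in each list the 8 with most reads per kb, the 4 with most reads, the 4 longest, the 5 densest that the other list did not overlap and 3 on each side of the threshold, then the 8 densest shared pairs and up to 3 genes per list and genotype. Other named islands and genes were chosen after their values were seen. Overlap and family counting were tested on simulated data. Python 3.11.15, pandas 2.3.3, numpy 2.4.6, scipy 1.17.1 and matplotlib 3.10.9 were used.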

Additional observations from a re-analysis of the deposited data

Results flagged for a closer look

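Dense islands were also listed outside the autosomes, where no comparison above used them, and are given as values. On chromosome X, dense islands held 91 reads in WT (1 of 2 islands) and 1111 in KO (3 of 9). On chromosome Y they held 284 reads in WT (1 island) and 5266 in KO (4 islands). On the mitochondrial genome the KO list had 2 islands, both dense, with 17486 reads and up to 1519 per kb, and the WT list had none.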

How the results depend on the processing

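No paired analysis was possible because WT and KO have a single H3K9me3 library each. Of 126 alternatives to 18 results, 72 stayed within the limits set and 54 moved. In what follows WT stands before KO. With 45 reads per kb as the threshold, dense islands numbered 1829 and 3074 (14.8% and 12.1% of islands), with 12.4% and 8.79% of reads, 49.2% and 33.7% overlapped, and 642 and 719 genes. In WT 6.67% then touched a tandem family. With 60 they numbered 110 and 127 (0.889% and 0.50%), with 1.82% and 1.003% of reads, 65.5% and 62.2% overlapped, 44.5% and 40.2% overlapped by dense islands, 13.6% and 17.3% at tandem families, and 58 and 50 genes, and in KO 43.3% touched a protein-coding gene. Among islands of at least 5 kb there were 261 and 169 (2.18% and 0.714%), with medians of 7 and 6.5 kb, 64.0% and 70.4% overlapped, 46.4% and 39.6% at protein-coding genes, 18% and 15.4% at tandem families, and 133 and 58 genes. In KO these held 1.38% of reads and 36.7% met a dense WT island. Taking the densest 5% of each list (cuts of 49.5 and 48.2 reads per kb) gave 5.005% and 5.01%, and in KO 1272 islands, 11.2% meeting a dense WT island and 359 genes. With 10 kb on each side of genes, 56.6% and 41.2% touched a protein-coding gene and 16.0% and 9.53% a tandem family, and 384 WT genes had a dense island. With tandem families of at least 5 genes it was 7.73% and 4.33%.

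The limits are those of 1 library per genotype and an unknown depth. A deeper library reaches 50 reads per kb with less enrichment, so numbers of members cannot be set against each other as enrichment. WT and KO changed places at 5 kb in the number of members and in both shares overlapped (by dense islands, 22.2% and 36.7%), at 45 reads per kb and in the densest 5% (263 and 359) in the number of genes, and at 60 for tandem families. The cause was not tested. The length of a member limits what its density says, since all islands under 3 kb pass the threshold.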

Other observations

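A number of genes used in the immune system had short dense islands. They were picked after their values were seen and belong to no list. Of all autosomal protein-coding genes, 1.20% had a dense island in WT and 1.14% in KO. Of the WT members under 6 kb, 176 of 396 (44.4%) were overlapped by a KO island, near the 41.5% of all WT islands of that length. Many short islands, dense or not, thus had none. Casp8, which encodes the initiator protease of death-receptor signalling, had a 3 kb WT island with 66.3 reads per kb and no KO island over it. Traf5, an adaptor of costimulatory receptors, had 58.6 over 3.5 kb in WT alone, and Cd226, an activating receptor of T and natural killer cells, 50.5 over 5.5 kb in WT alone. Ikzf2, which encodes the transcription factor Helios, had 53.8 over 5 kb in WT and a KO island of 45.8. Dock2, a guanine nucleotide exchange factor of migrating lymphocytes, had 56.7 over 3 kb in WT and 77.3 over 1.5 kb in KO. The interferon gene Ifna9 had its promoter under a WT island of 53.2.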
